A study of Mus musculus with 10 samples.

Results

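The genes of the oligodendrocyte lineage were compared in the nucleus accumbens (NAc), a part of the ventral striatum, of 2 inbred mouse strains, C57BL/6J (called B6) and DBA/2J (called D2). A list of 33 genes that mark the lineage from precursor to myelinating cell was looked up by Ensembl gene ID in the deposited raw count table, and all 33 were among its 29883 genes. The mice were ethanol-naïve males, 9 weeks old and obtained from Jackson Laboratory, with 5 mice of each inbred strain and no treatment in either group. The NAc was dissected by hand, and 1 stranded poly-A library was sequenced per mouse, with between 96977262 and 116776714 reads counted on genes. The difference in depth between the strains did not pass 0.05 (exact permutation test, two-sided, p = 0.063).

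Oligodendrocytes are the cells that wrap axons of the brain and spinal cord in myelin, a stack of compacted membrane rich in lipid and in a few abundant proteins. They arise from precursor cells that persist in the adult brain, carry the growth factor receptor PDGFRA and the proteoglycan NG2, and can still divide. A precursor that commits to differentiation passes through short-lived stages marked by Gpr17, Bcas1 and Enpp6, of which Bcas1 and Enpp6 reach into early myelination. The transcription factors Olig1, Olig2 and Sox10 act along the whole lineage. The members were therefore taken as 2 precursor genes (Pdgfra and Cspg4), 3 committed genes (Gpr17, Bcas1 and Enpp6), 3 lineage regulators (Olig1, Olig2 and Sox10) and 25 mature genes.

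Neither of the 2 precursor members passed the test between the strains, while many of the mature members were lower in D2. Of the 33 members, 13 passed an adjusted p of 0.05 (edgeR's quasi-likelihood test with Benjamini-Hochberg adjustment over all genes), 12 of them lower and 1 higher in D2. Over all 29883 genes tested, 18.3% passed, 9.83% lower and 8.50% higher in D2. Among the 10158 genes with at least the mean count of the lowest member, 22.4% passed and 12.6% were lower in D2. None of the 2 precursor genes and none of the 3 committed genes passed by edgeR or by DESeq2, and at an unadjusted p under 0.05 edgeR counted 1 precursor gene and 0 committed genes. Of the 3 lineage regulators 2 fell, and of the 25 mature genes 10 fell and 1 rose. The median log2 fold change (D2 minus B6) was -0.03 for the precursor genes, -0.10 for the committed genes, -0.26 for the lineage regulators and -0.29 for the mature genes, against 0.00 for all genes tested.

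**Figure D1:**
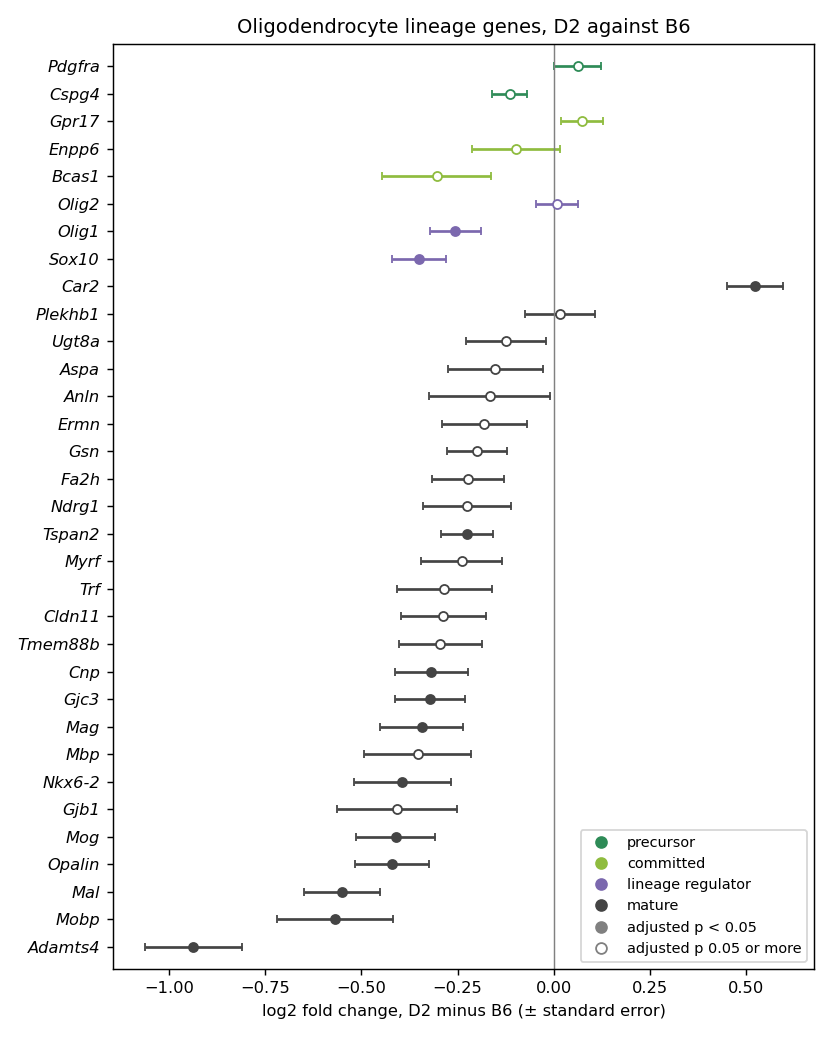
The log2 fold change of each of the 33 members (horizontal axis, D2 minus B6, with standard error, 5 mice per strain) by stage of the lineage, with filled points for an adjusted p under 0.05. The precursor genes lie near 0, 23 of the 25 mature genes lie below 0, Adamts4 lies lowest at -0.94 and Car2 highest at 0.52.

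The direction was shared by more mature genes than passed the test. Of the 25, 23 had a fold change below 0, Car2 and Plekhb1 being the exceptions, against 14742 of all 29883 genes. The 25 genes are not separate observations, since the same mice were high or low in most of them. In tissue RNA, fewer cells of a type and less RNA per cell cannot be told apart. Both strains were aligned to the B6 genome, and the effect of D2 alleles on the reads counted was not tested.

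Libraries of B6 mice 3 and 5 stood apart from the other B6 libraries over the 15388 genes compared, the members included. The pair was close to each other (mean chi-square per gene of 4.89, against 85.5 to 119 to the other B6 mice), and the summed level of 4 markers of cortical projection neurons (among them Slc17a7, the vesicular glutamate transporter) was 878 and 893 CPM (counts per 1e6 counted reads, with TMM normalization) in them. The same sum was 69.6 to 150 CPM in the other 3 B6 mice and 202 to 551 CPM in D2. These 2 mice were also high in myelin genes, and 1 of them was the highest B6 mouse for 22 of the 25 mature genes, 19 of which had both on top. At the other end, D2 mouse 4 was the lowest D2 mouse for all 25 mature genes and the lowest of all 10 mice for 23. Results are therefore given with all 10 mice and with B6 mice 3 and 5 left out, a choice made after the data were examined.

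With both mice left out, 7 of the 33 members passed (6 lower and 1 higher in D2), all of them among the 13 that passed with 10 mice, while 19.2% of all genes passed, 9.54% lower and 9.68% higher in D2. Olig1, Sox10, Nkx6-2, Mal, Opalin and Adamts4 remained lower and Car2 remained higher, whereas Mog, Mag, Mobp, Cnp, Tspan2 and Gjc3 no longer passed. The median log2 fold change of the mature genes moved to -0.15, and 21 of the 25 stayed below 0. In the same fit the median was -0.07 for the precursor genes, 0.04 for the committed genes and -0.26 for the lineage regulators. Pdgfra was at -0.013 and Cspg4 at -0.14, so the precursor and mature medians lay closer together than with all mice. The 4 cortical neuron markers, of which none passed with all mice by edgeR (0 at an unadjusted p under 0.05, and 0 by DESeq2), were then all higher in D2. This follows from leaving out the 2 mice highest in these markers. The summed level was then 69.6 to 150 CPM in B6, below the 202 to 551 CPM of D2, so the reduced fit cannot tell cortical content from strain. With the level of these markers as a covariate and all mice kept, 22 members passed (21 lower and 1 higher in D2), against 26.1% of all genes, 3886 lower and 3907 higher in D2. The part of cortical tissue in the levels of the members was not tested beyond these fits.

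**Figure D2:**
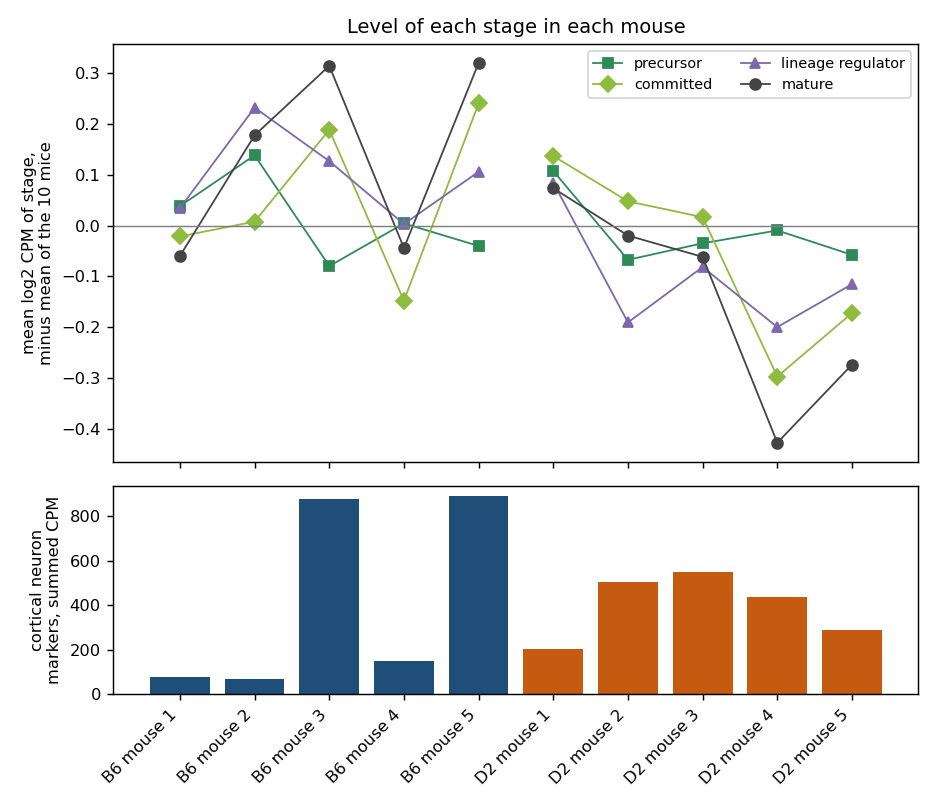
Upper panel, mean log2 CPM of each stage in each mouse minus the mean of the 10 mice (lines join the mice of a strain for reading only). Lower panel, summed CPM of the 4 cortical neuron markers. The mature genes spread from -0.43 in D2 mouse 4 to 0.32 in B6 mouse 5, the precursor genes only from -0.08 to 0.14, and the cortical markers stand highest in B6 mice 3 and 5.

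Pdgfra encodes the platelet-derived growth factor receptor that keeps precursors dividing (chr5:75311994-75358876, GRCm39, as all coordinates here). Its level in the 5 B6 mice was 66.9, 74.7, 60.5, 62.7 and 58.7 CPM, and in the 5 D2 mice 72.5, 66.3, 66.2, 67.2 and 65.5 CPM. The groups overlapped, with the highest and the lowest value both in B6, and the log2 fold change was 0.06 ± 0.06 (SE, n = 5 per strain, edgeR adjusted p = 0.56). Cspg4, the gene of NG2 (chr9:56772317-56807187), had 32.7, 33.6, 30.7, 33.3 and 33.4 CPM in B6 and 33.2, 28.5, 29.9, 30.4 and 29.2 CPM in D2. All D2 mice but mouse 1 lay below every B6 mouse, for a log2 fold change of -0.11 ± 0.05 (edgeR adjusted p = 0.11). Cspg4 passed in 1 of the 10 fits that left out a mouse, the fit without D2 mouse 1 (edgeR adjusted p = 0.023). The precursor genes varied little within a strain, with a median coefficient of variation of 6.75% in B6 and 5.09% in D2, against 12.8% and 14.6% for the mature genes.

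The 3 committed genes overlapped between the strains. Gpr17, a receptor of the last step before myelination, lay at 62.6 to 72.5 CPM in B6 and 65.9 to 78.4 CPM in D2 (log2 fold change 0.07 ± 0.05, edgeR adjusted p = 0.42). Bcas1, which marks newly formed and early myelinating oligodendrocytes, was 130, 150, 189, 122 and 192 CPM in B6 and 145, 147, 131, 98.7 and 112 CPM in D2. B6 mice 3 and 5 were again the highest, and the log2 fold change of -0.30 ± 0.14 (edgeR adjusted p = 0.18) moved to -0.08 without them. Bcas1 passed with cortical neuron markers as a covariate (-0.35 ± 0.11, edgeR adjusted p = 0.028) and with striatal neuron markers (adjusted p = 0.029), a covariate itself lower in D2. Enpp6, a choline phosphodiesterase of cells that start to myelinate, was the lowest member per length at 1.94 CPM per kb of exon. It had 11.3 to 15.4 CPM in B6 and 9.74 to 13.8 CPM in D2 (edgeR adjusted p = 0.64). Gpr17 was highest in mouse 1 and lowest in mouse 4 in both strains, and D2 mouse 4 was the lowest D2 mouse for all 3 committed genes.

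The lineage regulators split, although Olig1 and Olig2 are neighbours on chromosome 16 and encode related basic helix-loop-helix factors. Olig1 (chr16:91066660-91068821) had 88.9, 100.6, 90.9, 83.1 and 89.7 CPM in B6 and 88.0, 70.6, 75.9, 69.6 and 75.4 CPM in D2. All D2 mice except mouse 1 lay below every B6 mouse, and the log2 fold change was -0.26 ± 0.07 (edgeR adjusted p = 0.016). Olig2 (chr16:91019435-91025567) had 21.5, 23.9, 21.4, 20.4 and 21.1 CPM in B6 and 23.8, 19.9, 21.8, 21.5 and 21.95 CPM in D2. Its log2 fold change was 0.01 ± 0.06 (edgeR adjusted p = 0.95). A test of the difference between the 2 genes was not made. Sox10, the SOX factor that switches on myelin genes (chr15:79039108-79049469), had 44.1, 52.98, 52.5, 46.6 and 51.6 CPM in B6 and 44.7, 37.6, 40.0, 34.7 and 37.3 CPM in D2. D2 mouse 1 alone reached the B6 range, and the log2 fold change of -0.35 ± 0.07 (edgeR adjusted p = 0.0032) was -0.30 without B6 mice 3 and 5 (adjusted p = 0.015). Olig1 and Sox10 passed in all 10 fits that left out a mouse.

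Of the regulators of the mature cell, Nkx6-2 fell and Myrf did not pass. Nkx6-2, a homeobox factor of myelinating oligodendrocytes (chr7:139159292-139162718), had 12.9, 16.0, 11.05, 10.9 and 11.5 CPM in B6 and 11.5, 9.28, 10.4, 7.503 and 8.80 CPM in D2. Its highest B6 mice were 2 and 1 rather than 3 and 5, and the log2 fold change was -0.39 ± 0.13 with all mice (edgeR adjusted p = 0.048) and -0.48 ± 0.14 without B6 mice 3 and 5 (adjusted p = 0.026). It passed in 3 of the 10 fits that left out a mouse. Nkx6-2 shares 12.9% of its exon bases with Inpp5a on the opposite strand, which was also lower in D2, at 60.4 ± 2.66 CPM in B6 and 53.5 ± 2.35 CPM in D2 (SD, n = 5, log2 fold change -0.17, edgeR adjusted p = 0.0089), and the part of its reads in the counts of Nkx6-2 was not tested. Myrf, the membrane-bound factor required for myelin gene expression, lay at 65.0 to 85.0 CPM in B6 and 54.1 to 77.7 CPM in D2 (log2 fold change -0.24 ± 0.11, edgeR adjusted p = 0.15).

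All 12 genes of myelin and myelin-associated proteins had lower means in D2, and 7 of them passed, with a median log2 fold change of -0.33. Mbp, the myelin basic protein that compacts the membrane, had the highest level of the members per length at 220 CPM per kb of exon, followed by Cnp at 80.1, Mal at 70.2 and Mobp at 69.3 CPM per kb. Its values were 1905, 2346, 2901, 2005 and 2880 CPM in B6 and 2153, 2153, 1988, 1456 and 1672 CPM in D2. Only the pair of B6 mice 3 and 5 and B6 mouse 2 exceeded the highest D2 mouse. The log2 fold change was -0.35 ± 0.14 (edgeR adjusted p = 0.10). Without B6 mice 3 and 5 it was -0.15 ± 0.12 (adjusted p = 0.46). Mbp passed with cortical neuron markers as a covariate (-0.40 ± 0.11, edgeR adjusted p = 0.013) and with striatal neuron markers (adjusted p = 0.043), a covariate itself lower in D2.

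Mal, a proteolipid of myelin rafts and vesicle transport (chr2:127475142-127498615), was the myelin protein gene whose groups did not overlap. It had 209, 256, 247, 207 and 260 CPM in B6 and 191, 166, 170, 129 and 148 CPM in D2. Every D2 mouse lay below every B6 mouse (exact permutation test, p = 0.0079, the smallest that 5 against 5 mice allow), as did 8.63% of all genes. The log2 fold change was -0.55 ± 0.10 (edgeR adjusted p = 0.0015) and -0.48 ± 0.11 without B6 mice 3 and 5 (adjusted p = 0.0067). Mal passed in all 10 fits that left out a mouse.

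Mobp, a small basic protein of the cytoplasmic side of compact myelin (chr9:119973770-120011273), showed a difference of the same size with a wider spread. It had 559.9, 747, 897, 614 and 893 CPM in B6 and 559.6, 601, 529, 382 and 431 CPM in D2. Only D2 mouse 2 exceeded a B6 mouse, namely mouse 1, and the log2 fold change was -0.57 ± 0.15 (edgeR adjusted p = 0.018). Without B6 mice 3 and 5 it was -0.36 ± 0.13 and no longer passed (adjusted p = 0.084).

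Opalin (chr19:41045254-41065553) encodes a glycoprotein found in oligodendrocytes of the central nervous system. It had 26.1, 32.2, 31.1, 25.5 and 30.9 CPM in B6 and 25.8, 22.8, 22.4, 18.3 and 19.5 CPM in D2. Only D2 mouse 1 reached the lowest B6 mouse, and the log2 fold change was -0.42 ± 0.10 (edgeR adjusted p = 0.0077), or -0.36 ± 0.11 without B6 mice 3 and 5 (adjusted p = 0.032). Mog, the surface glycoprotein of the outermost myelin layer (chr17:37321521-37334350), had 50.2, 63.8, 67.8, 54.2 and 67.4 CPM in B6 and 50.8, 49.4, 48.5, 36.1 and 43.5 CPM in D2. D2 mouse 1 exceeded B6 mouse 1, and the log2 fold change of -0.41 ± 0.10 (edgeR adjusted p = 0.014) was -0.30 ± 0.10 without B6 mice 3 and 5 (adjusted p = 0.063). Mog shares 64.6% of its exon bases with Zfp57 on the opposite strand, which had 8.11 ± 2.14 CPM in B6 and 10.1 ± 1.86 CPM in D2 (SD, n = 5), and the strand setting of the counting was not given in the sources used here.

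The other 3 myelin protein genes that fell changed less than Mog, and their calls depended on the mice included. Mag, the adhesion protein of the membrane next to the axon, changed by -0.34 ± 0.11 (log2, edgeR adjusted p = 0.045), Cnp, the cyclic nucleotide phosphodiesterase of uncompacted myelin, by -0.32 ± 0.10 (adjusted p = 0.036), and the tetraspanin gene Tspan2 by -0.23 ± 0.07 (adjusted p = 0.034). They passed in 4, 5 and 3 of the 10 fits that left out a mouse. Cnp shares 16.5% of its exon bases with Dnajc7 on the opposite strand, which had 170 ± 5.13 CPM in B6 and 185 ± 2.73 CPM in D2 (SD, n = 5). The remaining myelin protein genes Cldn11 (tight junction claudin), Ermn (cytoskeletal ermin), Tmem88b and Anln (the actin- and septin-binding protein anillin) did not pass, with log2 fold changes of -0.29, -0.18, -0.29 and -0.17. Tmem88b is listed in the annotation as Tmem278.

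**Figure D3:**
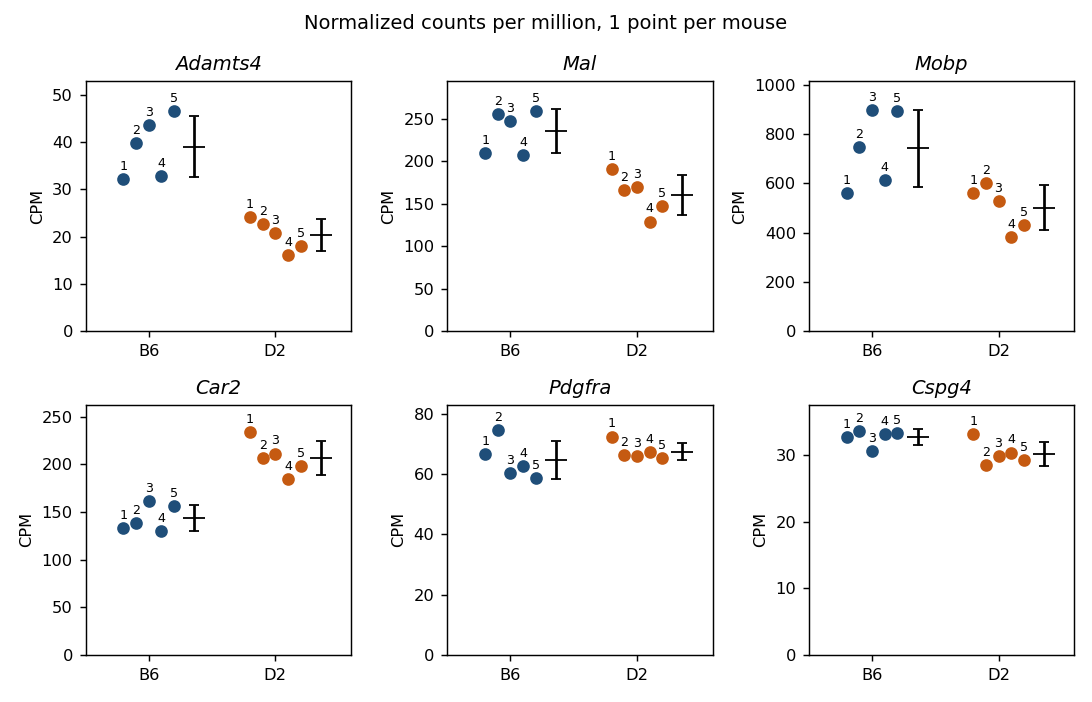
CPM of 6 members in each mouse (points, labelled by mouse number), with the mean and SD of the 5 mice of a strain in black. Adamts4 and Mal lie lower and Car2 higher in every D2 mouse than in any B6 mouse, Mobp overlaps by B6 mouse 1, and the precursor genes Pdgfra and Cspg4 overlap.

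The genes of the 2 gap junction proteins, connexins that couple oligodendrocytes to each other and to astrocytes, gave 1 call. Gjc3 had 58.6 to 78.0 CPM in B6 and 47.2 to 62.7 CPM in D2, with a log2 fold change of -0.32 ± 0.09 (edgeR adjusted p = 0.026), and -0.19 ± 0.08 without B6 mice 3 and 5 (adjusted p = 0.12). Gjb1 had a larger change with a larger error, -0.41 ± 0.16 (edgeR adjusted p = 0.096), and the values of B6 mice 3 and 5, 15.9 and 15.7 CPM, lay above the 7.33 to 12.3 CPM of the other 8 mice.

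Among the enzymes were the member with the largest decrease and the only member that rose. Adamts4 (chr1:171077986-171089841) encodes a secreted metalloprotease that cleaves proteoglycans and that in the brain is made mainly by oligodendrocytes. It had 32.2, 39.9, 43.6, 32.8 and 46.6 CPM in B6 and 24.2, 22.8, 20.7, 16.0 and 18.1 CPM in D2. The highest D2 mouse lay below the lowest B6 mouse (exact permutation test, p = 0.0079, the smallest possible), and the level in D2 was 0.522 times that in B6, a log2 fold change of -0.94 ± 0.13 (edgeR adjusted p = 0.00016). Without B6 mice 3 and 5 it was -0.78 ± 0.12 (adjusted p = 0.00042).

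Car2 (chr3:14951317-14967568), the cytosolic carbonic anhydrase of oligodendrocytes, was the only mature gene that passed in the direction opposite to the others. It had 133, 138, 161, 130 and 157 CPM in B6 and 234, 206, 211, 185 and 198 CPM in D2. Every D2 mouse lay above every B6 mouse (exact permutation test, p = 0.0079, the smallest possible), as did 7.39% of all genes, and the level was 1.44 times higher in D2 with a log2 fold change of 0.52 ± 0.07 (edgeR adjusted p = 0.00019). Without B6 mice 3 and 5 it was 0.63 ± 0.06. Within each strain Car2 ordered the mice much as the other mature genes did, with B6 mice 3 and 5 highest in B6 and D2 mouse 4 lowest in D2. With the level of striatal neuron markers as a covariate, Car2 no longer passed (log2 fold change 0.35, adjusted p = 0.053). The mean log2 level of these markers was itself lower in every D2 mouse than in any B6 mouse.

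The enzymes of myelin lipids did not pass. Ugt8a, which makes galactosylceramide, had a log2 fold change of -0.12 ± 0.10 (edgeR adjusted p = 0.50), Fa2h, which hydroxylates its fatty acids, of -0.22 ± 0.09 (adjusted p = 0.13), and Aspa, which releases acetate from N-acetylaspartate, of -0.15 ± 0.12 (adjusted p = 0.48). Of the other mature genes, none of 4 passed by edgeR or DESeq2, and at an unadjusted p under 0.05 edgeR counted 2. On the log2 scale the iron carrier Trf changed by -0.28 ± 0.12 and Ndrg1 by -0.23 ± 0.11 (edgeR adjusted p of 0.15 and 0.21). The actin-severing protein gene Gsn changed by -0.20 ± 0.08 and Plekhb1 by 0.02 ± 0.09 (adjusted p of 0.10 and 0.94).

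The precursor and the mature genes were then set side by side within each mouse, as the mean log2 CPM of the 25 mature genes minus that of the 2 precursor genes. The difference was 0.79, 0.92, 1.28, 0.84 and 1.24 in B6 and 0.85, 0.93, 0.86, 0.47 and 0.67 in D2. B6 mice 3 and 5 stood above and D2 mice 4 and 5 below a range that held the other 6 mice of both strains. The B6 mice had a mean of 1.01 ± 0.23 and the D2 mice of 0.75 ± 0.19 (SD, n = 5), and the B6 mice without mice 3 and 5 had 0.85 ± 0.07 (SD, n = 3). The strains overlapped, and no test was made on a score over chosen genes.

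**Figure D4:**
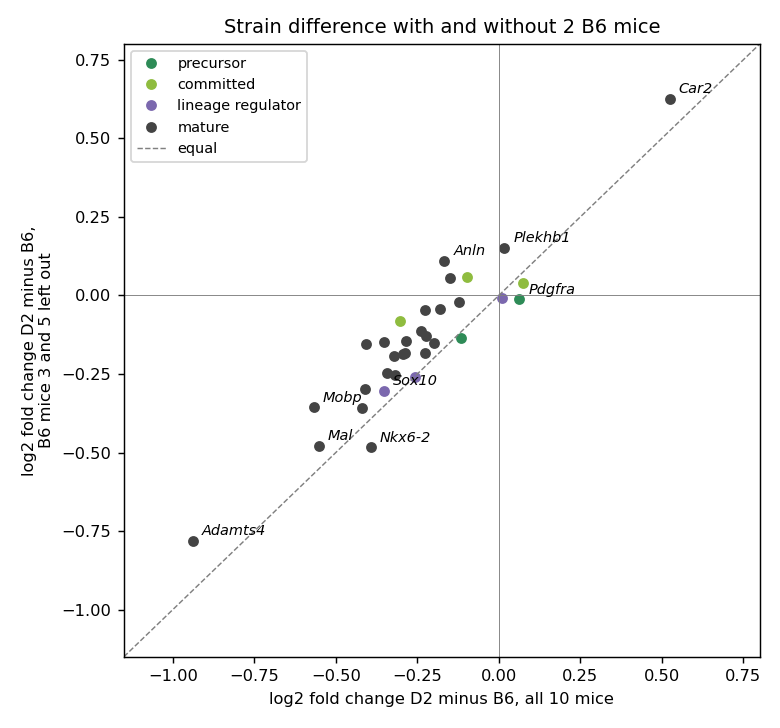
Log2 fold change of each member (D2 minus B6) with all 10 mice on the horizontal axis and with B6 mice 3 and 5 left out on the vertical axis, coloured by stage, with a dashed line of equal values. Most mature genes lie above the line, with a median that moves from -0.29 to -0.15, while Adamts4, Mal and Nkx6-2 stay low and Car2 stays high.

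When the mean level of 34 further mature genes outside the members was added to the fit as a covariate, 6 members passed (5 higher and 1 lower in D2), against 9.62% of all genes, 4.59% higher and 5.02% lower in D2. Relative to that level Car2 was 0.79 ± 0.06 higher (log2, edgeR adjusted p = 3.51e-06), Anln 0.44 ± 0.12 (adjusted p = 0.040), Plekhb1 0.37 ± 0.06 (adjusted p = 0.0021), Ugt8a 0.29 ± 0.06 (adjusted p = 0.011) and Ndrg1 0.24 ± 0.06 higher in D2 (adjusted p = 0.025). Adamts4 was 0.43 ± 0.07 lower (log2 fold change -0.43, adjusted p = 0.0011). Mog, Cnp, Gjc3 and Mobp were close to 0 in this fit, at 0.02, 0.05, 0.03 and 0.05. The covariate itself differed between the strains (mean of the log2 level relative to the 10 mice, 0.15 ± 0.15 in B6 and -0.15 ± 0.13 in D2, SD, n = 5). Adamts4 was the member that passed in the same direction in all 21 fits with another scaling, filter, tool, covariate or set of mice.

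Further genes of the lineage, from lists written from general knowledge, were counted in the same way. Of the 34 further mature genes, 18 fell and 1 rose, with a median log2 fold change of -0.27, and without B6 mice 3 and 5 the counts were 8 and 2 with a median of -0.16. Of 12 further precursor genes, Neu4 and Sox6 rose and Cacng4 fell, with a median of 0.17, and of 10 further committed genes, Bmp4 rose and Rnf122 fell, with a median of -0.01. The largest decreases were those of Ninj2 (-1.20 ± 0.17, edgeR adjusted p = 0.00025), the protease gene Klk6 (-1.003 ± 0.27, adjusted p = 0.020) and the alarmin gene Il33 (-0.76 ± 0.09, adjusted p = 3.17e-05). Ninj2 was low, at 1.49 to 1.91 CPM in B6 and 0.479 to 0.917 CPM in D2. The largest increases were those of the sulfatide-degrading enzyme Arsa (0.35 ± 0.03, edgeR adjusted p = 4.52e-06), Bmp4 (0.35 ± 0.11, adjusted p = 0.0499) and Sox6, a SOX factor of precursors (0.25 ± 0.07, adjusted p = 0.021). Without B6 mice 3 and 5, Klk6, Bmp4, Sox6 and Neu4 no longer passed (adjusted p of 0.10, 0.15, 0.079 and 0.10). In that fit 11 of the 12 further precursor genes had a fold change above 0, against 15068 of all 29883 genes. Those that passed as higher in D2 were Xylt1 (0.46, adjusted p = 0.0025) and Emid1 (0.62, adjusted p = 0.046). With all mice Xylt1 was at 0.04 and Emid1 at -0.17. Both were highest in the 2 mice left out, at 95.5 and 96.0 CPM for Xylt1 and 14.2 and 15.2 CPM for Emid1. With cortical neuron markers as a covariate they were at -0.05 and -0.27 (edgeR adjusted p of 0.68 and 0.062). With that covariate 7 of the 12 further precursor genes passed, 6 higher and 1 lower in D2, against 26.1% of all genes.

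Markers of other cell types were examined in the same libraries. Striatal neuron markers fell in 4 of 6 (summed level 2580 to 3274 CPM in B6 and 2201 to 2641 CPM in D2), and astrocyte markers fell in 3 and rose in 1 of 6 (1440 to 1561 CPM and 1263 to 1389 CPM). None of 4 endothelial markers passed by edgeR (2 at an unadjusted p under 0.05, and 2 by DESeq2), at 119 to 154 CPM in B6 and 102 to 137 CPM in D2. Of the markers of mural cells 2 of 5 fell and 1 rose, of microglia 1 of 5 rose, of fibroblasts 1 of 4 rose, of blood 2 of 3 fell and of the choroid plexus 1 of 5 fell. None of 4 ependymal and none of 4 Schwann cell markers passed by edgeR, with 1 and 0 at an unadjusted p under 0.05 and 1 and 0 by DESeq2. Ttr, which defines the choroid plexus, was at 0.0378 to 0.499 CPM over all mice. The share of these cell types in the levels of the members was not tested. With the striatal neuron markers as a covariate, 12 members passed, all lower in D2, against 10.6% of all genes, 5.85% lower and 4.74% higher in D2.

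Calls around the members were counted because nearby genes share strain haplotypes. Within 1 Mb of Adamts4, 22 of 69 other tested genes passed, and 5 of 13 did so around Car2. Over the 13 members that passed, 27.5% of the neighbours did, and over the 20 that did not, 19.5%. The share was 18.3% of all genes, and 22.4% of those with at least the mean count of the lowest member. Genes near 2 members were counted for both, as around Olig1, which passed, and its neighbour Olig2, which did not. The difference between these shares was not tested. Whether a variant near a member acts on it was not tested.

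The proximal promoters of the members were read from GRCm39 because SOX10, OLIG2 and MYRF are known to bind regulatory DNA of myelin genes. Within 250 bases before the start of the canonical transcript, on both strands, a SOX core (ACAAAG or ACAATG) was found in 14 of the 33 members (42.4%), in 11 of the 25 mature genes (44%) and in 3 of the other 8, against 20.4% of 17331 promoters. The E-box CAGCTG was found in 5 members (15.2%), against 12.1%, and the MYRF motif (CTGGCAC or CTGGTAC) in 4, namely Myrf, Mog, Cnp and Trf (12.1%), against 6.06%. The motifs do not contain each other, and a match describes letters and not a bound site. Stretches of 30 bases are printed for members that fell, 5′ to 3′ on the strand of the gene, with the matched motif or its reverse complement in capitals. They show a SOX core in the promoters of a regulator, of 3 genes of myelin and myelin-associated proteins and of a connexin, the MYRF motif of Mog and Cnp, and the E-box of Adamts4, which had no SOX core in this window.
Olig1, SOX core, chr16:91066412-91066441, plus strand: aattcggaaggaACAATGttttgccctaaa
Mobp, SOX core, chr9:119978598-119978627, plus strand: ttttgtttcactCTTTGTttcaactttctt
Cnp, SOX core, chr11:100465586-100465615, plus strand: aacttttaaggaACAAAGaggtggcgtggc
Opalin, SOX core, chr19:41065674-41065703, minus strand: cagaaaataaagACAAAGagaaggaagact
Gjc3, SOX core, chr5:137961612-137961641, minus strand: gttttcaaggatACAATGtttttattcttt
Mog, MYRF motif, chr17:37334355-37334384, minus strand: agaaatgcccaGTACCAGgcagccactgct
Cnp, MYRF motif, chr11:100465673-100465702, plus strand: accgctgcttcCTGGCACtcaggtttccat
Adamts4, E-box, chr1:171077740-171077769, plus strand: atCAGCTGgctcagtgccttaaatgcatct

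The motif did not separate members that passed from those that did not, since Car2, Mal and Sox10 passed without a SOX core in this window and Cspg4, Enpp6, Ermn and Plekhb1 held one without passing. Mobp held 7 matches on the strand opposite to its transcription. D2 sequence was not used here, and no match says only that these letters were not in the window.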

How the data were processed

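The authors deposited unnormalized counts of reads on each gene for 10 NAc libraries (5 B6 and 5 D2 mice, 1 library per mouse). After trimming with fastp, the authors aligned both strains to the Ensembl release of the B6 genome (GRCm39) with STAR 2.7.10b, sorted them with SAMtools 1.6 and counted them with featureCounts, and the strand setting is not given in the sources used here. Genes with a median of 0 had been removed, and the lowest median in the table was 0.5. The libraries were made by Novogene according to the labels and by the VCU Genomics Core according to the methods.

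Members were matched by Ensembl ID to GENCODE M39 (29519 of 29883 IDs matched), and Tmem88b by its RefSeq promoter sequence. Counts were fitted with edgeR 4.0.16 in R 4.3.3 (quasi-likelihood test after TMM normalization, two-sided, strain as the only term, all genes, Benjamini-Hochberg adjustment, threshold 0.05). The standard error was obtained by dividing the size of the log2 fold change by the root of the F statistic, CPM are TMM-normalized counts per 1e6 counted reads, and 0.01 CPM was added before logarithms. CPM per kb divides by the summed exon length of the gene. Exact permutation tests, on log2 CPM for single genes, ran over the 252 assignments of 5 and 5 mice. With these depths, precision was set by the spread between mice. Nothing states that the mice came from separate litters or cages.

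The genes named were all 33 members, the 3 largest changes in each direction among the called genes of 56 further lineage genes, and markers that a result turned on. Overlapping genes, Slc17a7, Ttr, Xylt1, Emid1, Neu4, Cacng4 and Rnf122 were named after their values were seen, and some marker and overlapping genes are not reported here. Members, the lists of 56 further genes and of 51 markers in 11 cell types (50 in the table), tests and alternatives were chosen with earlier results of these data known. Alternatives were DESeq2 1.42.0, its size factors, total counts, upper-quartile scaling, filterByExpr, a minimum of 10 counts in every sample, the replicate number as a block, 3 marker lists as covariates, a threshold of 0.01 and each mouse left out. Leaving out B6 mice 3 and 5 together was added after the data were examined. The fit was tested on simulated data. Promoters were read from the GRCm39 genome with Python 3.11.15, and figures drawn with matplotlib 3.10.9.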

Additional observations from a re-analysis of the deposited data

Results flagged for a closer look

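In 66 groups of 5 mice (33 members in 2 strains), 1 had a mouse far from the others by Dixon's test at the 95% level. Pdgfra was 72.5 CPM in D2 mouse 1, and the gap to the next D2 mouse was 0.75 of the range of the group, above the critical value of 0.710. Chance gives about 1 such value in 20 groups. The same mouse was the highest D2 mouse for both precursor genes, for all 3 lineage regulators and for 19 of the 25 mature genes.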

How the results depend on the processing

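DESeq2 size factors, upper-quartile scaling, filterByExpr, a minimum of 10 counts in every sample and the replicate block each kept the 13 calls, DESeq2 added Tmem88b and Gjb1, and total counts lost Nkx6-2, Mag and Tspan2. The cause of the changes that follow was not tested. With the further mature genes as a covariate, 6 members passed (5 higher, 1 lower) among 2874 genes, and the medians became 0.27 for committed genes, -0.11 for lineage regulators and 0.15 for mature genes. In that fit the direction turned for Bcas1 (0.27), Enpp6 (0.30), Myrf (0.16), Mbp (0.22), Mog (0.019), Mag (0.088), Mobp (0.055), Cnp (0.050), Cldn11 (0.15), Ermn (0.19), Tmem88b (0.14), Anln (0.44), Gjc3 (0.026), Gjb1 (0.22), Ugt8a (0.29), Fa2h (0.15), Aspa (0.32), Trf (0.21), Ndrg1 (0.24) and Gsn (0.079). With cortical neuron markers as a covariate 22 members passed (21 lower), and Plekhb1 turned to -0.020. With striatal neuron markers, whose mean log2 level did not overlap between the strains, 0 members were called higher in D2 and 3163 genes passed. The medians in that fit were -0.40 for committed and -0.50 for mature genes, and Plekhb1 turned to -0.23. Without B6 mice 3 and 5 together 7 members passed (6 lower), and Pdgfra (-0.013), Enpp6 (0.059), Olig2 (-0.0095), Anln (0.11) and Aspa (0.054), none of them called, turned. At an adjusted p of 0.01, 5 members passed (4 lower), against 11.4% of all genes.

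With 1 mouse left out, 7 to 17 members passed (6 to 16 lower), against 15.5% to 19.0% of all genes, with 8 without B6 mouse 5, 8 without D2 mouse 4 and 7 without D2 mouse 5. Olig1, Sox10, Mog, Mal, Opalin, Car2 and Adamts4 passed in all 10 such fits. Olig2 ranged from -0.025 to 0.046 and Plekhb1 from -0.033 to 0.063. The ratio of library sizes (D2 over B6) ranged from 1.05 to 1.09, and without B6 mouse 1 or D2 mouse 5 the exact permutation test gave p = 0.032.

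The deviations of same-numbered mice had correlations of both signs (0.37, -0.40, 0.36, 0.03 and -0.29). These few values cannot decide whether the numbers mark a shared day or batch. With the replicate block 13 members and 4731 genes passed, and only the mice numbered 1 and 3 in B6 correlated best with their own number.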
